A study of Homo sapiens with 24 samples.

Results

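The genes described here encode the enzymes that make serine and that carry its one-carbon unit through folate in the cytosol and in the mitochondrion. They were chosen by name, as the rows of the deposited count table whose Ensembl identifier maps to PHGDH, PSAT1, PSPH, SHMT1, SHMT2, MTHFD1, MTHFD1L, MTHFD2, ALDH1L1 or ALDH1L2. The table gave 9 of these 10 genes, among 14585 genes in all, and ALDH1L1 was not analysed here. RNA was sequenced from A549 cells, an established human lung carcinoma line with wild-type p53, and from Huh7 cells, an established human hepatocellular carcinoma line with mutant p53. In each line the 4 groups were control cells and cells treated with an ethanol extract of the herb Pulsatilla chinensis (P. chinensis), of the herb Bupleurum chinense (B. chinense) or of the fungus Polyporus umbellatus (P. umbellatus), each in 3 replicates, for 24 libraries over both lines. Both lines are labelled wild type, with no allele or transgene added. The dose, the time of treatment and the vehicle of the control cells are not given in the sources used here. No source says that the replicates were separate cultures, so p-values measure the spread between these samples, which may be technical.

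Serine is made from the glycolytic intermediate phosphoglycerate by PHGDH, PSAT1 and PSPH in turn. Serine hydroxymethyltransferases, SHMT1 in the cytosol and SHMT2 in the mitochondrion, then move a carbon of serine to tetrahydrofolate and release glycine. The mitochondrial arm (SHMT2, MTHFD2, MTHFD1L) oxidises that carbon to formate, and the cytosolic MTHFD1 takes formate up again for the synthesis of purines and thymidylate. Proliferating tumour cells are known to use this pathway, and several of its genes are known targets of the transcription factors ATF4 and MYC.

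The libraries summed to between 6803704 and 24345541 estimated counts. Levels are given as CPM, counts scaled to a common library size by the TMM method within a line, and differences as log2 fold changes with their standard error (SE) from edgeR's quasi-likelihood test, adjusted over all genes tested in the line (adjusted p below 0.05). The lines carried their own markers, since albumin (ALB) reached at most 0.714 CPM in A549 libraries and at least 2751 CPM in Huh7 libraries, while keratin KRT7 lay between 1553 and 1773 CPM in A549 and at most at 0.123 CPM in Huh7. A library stood apart, replicate 2 of the Huh7 P. umbellatus group. Its median squared difference from its fellow replicates was 13.3 and 17.6 times that of sampling noise, against 2.74 to 5.36 times for all other pairs of replicates. Calls of a member against control or between the lines that change without this library are given both ways. Named genes other than the members were not assessed without it. Several members overlap other genes on the opposite strand when whole gene spans are compared, introns included (SHMT1 with SMCR8, MTHFD1 with ZBTB25, SHMT2 with NDUFA4L2, MTHFD2 with SLC4A5, ALDH1L2 with NOPCHAP1 and WASHC4). Whether their exons overlap was not checked. Whether strand was used in counting is not given in the sources used here, so counts may hold reads of these partners where exons overlap.

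In both lines most of the enzyme genes were lower after treatment, and none was called higher in any of the 6 comparisons of a herb with control. In A549 cells 15.8%, 13.1% and 13.4% of all genes tested were called higher with these herbs in the order named above, and in Huh7 cells 10.5%, 0.519% and 19.3%. Of the 54 tests of a member in these comparisons, 51 gave a negative log2 fold change and 36 were called lower. In A549 cells 7 of 9 members were called lower after P. chinensis, against 17.1% of all genes tested, 7 after B. chinense (15% of all genes) and 7 after P. umbellatus (14.8%). In Huh7 cells 8 of 9 were called lower after P. chinensis (10.5% of all genes), 2 after B. chinense (0.757%) and 5 after P. umbellatus (17.8%). The Huh7 B. chinense count was 8 without the library that stands apart, where 6.57% of all genes were called in either direction against 1.28% with it, and it ranged from 0 to 4 as single other libraries were left out. The comparisons within a line share their control libraries, so these counts are not independent of each other. PSAT1 and SHMT2 were called lower in all 6 comparisons. At an unadjusted p under 0.05, 1 member was higher in 1 of the 6 comparisons, ALDH1L2 in A549 cells with P. umbellatus, and that gene was called higher there under upper quartile normalization (0.37, adjusted p = 0.0437) but not with DESeq2. In bulk RNA fewer cells of a type and less RNA per cell cannot be told apart.

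**Figure D1:**
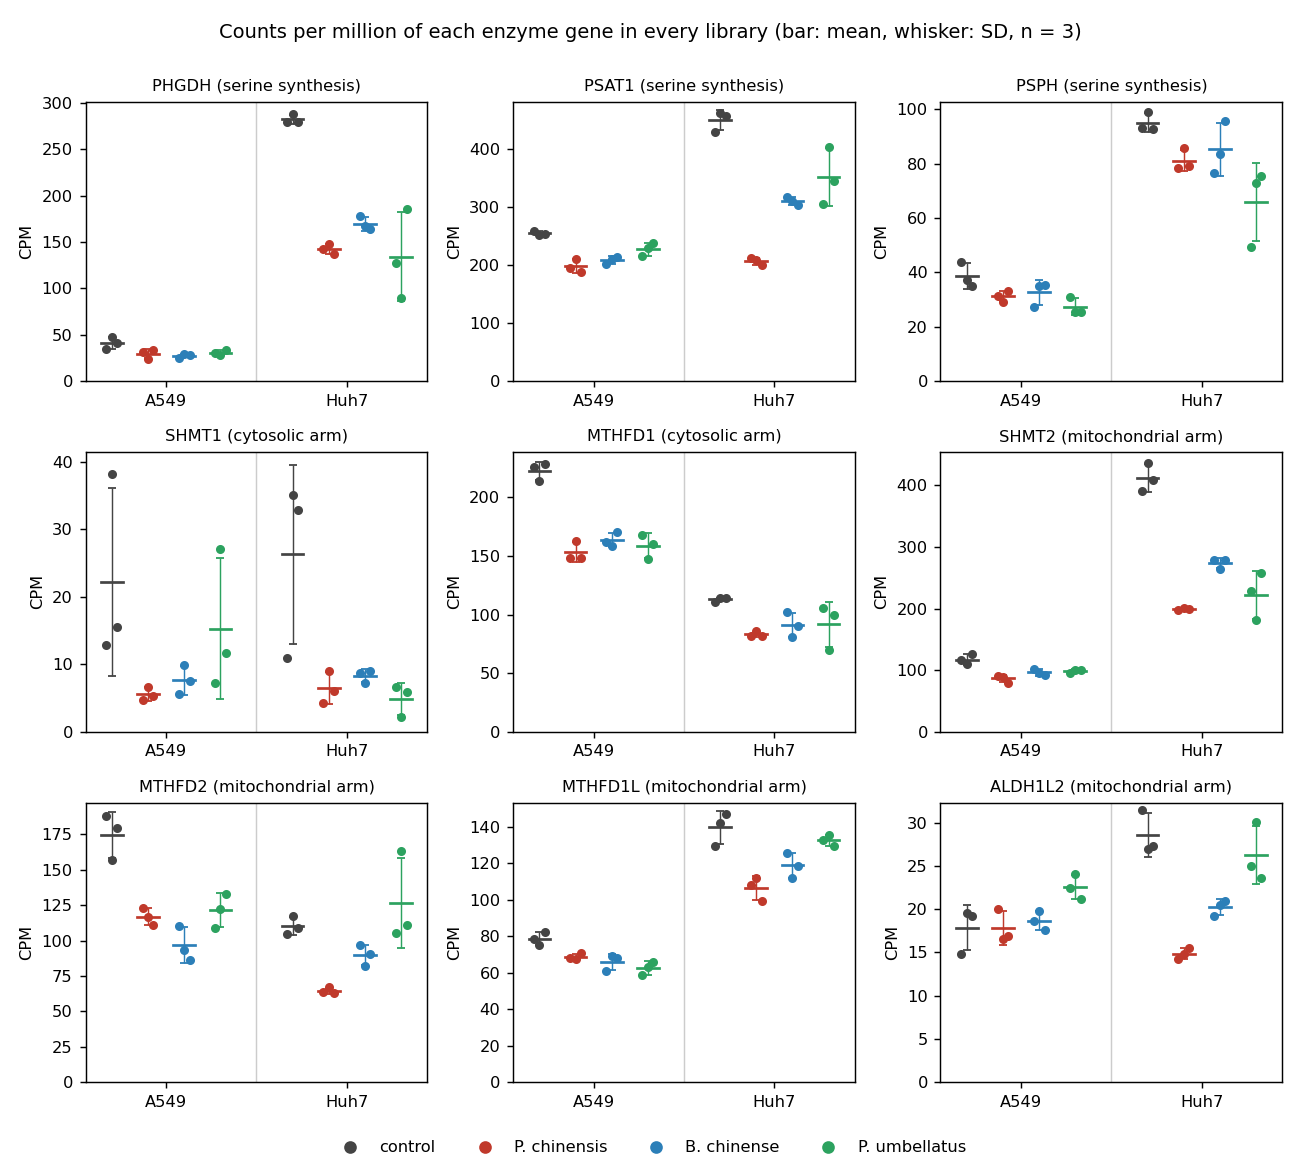
Normalised level in CPM (linear axis from 0) of each of the 9 enzyme genes in every library, by line and treatment, with points for the 3 replicates, a horizontal bar for their mean and a whisker for the SD. Control libraries (grey) lie above all libraries treated with P. chinensis for every gene except ALDH1L2 in A549 cells, and the SHMT1 controls are widely spread.

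With the extracts in the same order, the median log2 fold change of the 9 members in A549 cells was -0.44, -0.28 and -0.44, beside 0.014, -0.002 and -0.012 over all genes tested. In Huh7 cells it was -0.94, -0.50 and -0.36, beside 0.011, 0 and 0.032 over all genes. No herb library overlapped with the control libraries for 8, 7 and 8 members in A549 cells, where 45.1%, 40.4% and 41.6% of all genes showed no overlap. In Huh7 cells the groups did not overlap for 9, 8 and 6 members, against 53.3%, 29.1% and 48.4% of all genes.

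Promoters of the members were searched for the sites of factors known to act on amino acid and growth genes. Windows of 250 bases before to 50 bases after the start site, from RefSeq on GRCh38.p14, were held for 6 of the 9 members in 9 windows, and not for PSPH, SHMT2 and ALDH1L2. Motifs were searched on both strands among 34796 windows of the same length. The C/EBP-ATF response element TGATGNAA, at which ATF4 is known to bind, occurred in 3.63% of all windows, the E-box CACGTG, known to be bound by MYC, in 7.2%, the cyclic AMP response element TGACGTCA in 1.84%, the E2F sites TTTCGCGC and TTTGGCGC in 0.506% and 0.652%, and the antioxidant response element TGACNNNGC in 13.3%. Of the searched pairs of motifs, no 2 matches overlapped in a member's window. Shown here are MTHFD1L, which held both an E-box and the element TGATGCAA, MTHFD1, which held an E-box, and PSAT1, which was called lower in every comparison and held no match. Capitals mark the matches, and each sequence runs 5′ to 3′ on the strand of its gene, the plus strand at chr6:150866083-150866382, chr14:64388103-64388402 and chr9:78296875-78297174.
MTHFD1L: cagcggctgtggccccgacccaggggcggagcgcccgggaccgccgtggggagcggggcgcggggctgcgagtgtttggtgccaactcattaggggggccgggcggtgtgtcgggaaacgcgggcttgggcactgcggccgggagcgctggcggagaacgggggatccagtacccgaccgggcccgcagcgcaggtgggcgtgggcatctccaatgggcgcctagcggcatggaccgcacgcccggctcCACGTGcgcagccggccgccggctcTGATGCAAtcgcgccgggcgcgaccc
MTHFD1: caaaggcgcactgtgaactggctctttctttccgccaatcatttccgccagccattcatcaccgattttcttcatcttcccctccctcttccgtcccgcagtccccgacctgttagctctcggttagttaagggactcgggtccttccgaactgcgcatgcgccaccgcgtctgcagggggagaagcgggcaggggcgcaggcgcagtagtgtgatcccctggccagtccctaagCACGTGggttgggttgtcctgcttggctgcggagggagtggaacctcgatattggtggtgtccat
PSAT1: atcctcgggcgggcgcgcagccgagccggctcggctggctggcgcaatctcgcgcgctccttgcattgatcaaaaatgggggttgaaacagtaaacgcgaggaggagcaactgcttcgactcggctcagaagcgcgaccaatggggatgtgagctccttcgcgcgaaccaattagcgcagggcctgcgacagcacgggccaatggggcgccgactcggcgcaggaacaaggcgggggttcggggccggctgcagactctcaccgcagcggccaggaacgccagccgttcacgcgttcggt
In MTHFD1L the E-box began 1 base before the start site and the C/EBP-ATF element 24 bases after it, and in MTHFD1 the E-box began 15 bases before the start site. MTHFD2 held 1 match, to the antioxidant response element, beginning 6 bases after its start site. The windows of PHGDH and SHMT1, like that of PSAT1, held none of these letters. MTHFD1L has 4 windows, and its pair of matches lies in 3 of them, at the same genomic positions.

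Among the serine synthesis genes, PHGDH (ENSG00000092621, chr1:119648411-119744218, plus strand) encodes the dehydrogenase of the first step. In A549 control cells PHGDH was at 34.7, 47.3 and 41.8 CPM, and at 31.3, 24.4 and 34.1 CPM with P. chinensis. With B. chinense it was at 25.4, 29.0 and 28.2 CPM, and with P. umbellatus at 30.0, 27.8 and 33.7 CPM. Every treated A549 library was thus below the lowest control library, by a small margin for some. The log2 fold changes were -0.47 (SE 0.14, adjusted p = 0.0158), -0.59 (SE 0.14, adjusted p = 0.00512) and -0.44 (SE 0.13, adjusted p = 0.0232). The P. chinensis call in A549 cells was lost without P. chinensis replicate 2 or control replicate 2, where the highest adjusted p was 0.0837. The P. umbellatus call was lost in 4 of 21 alternative settings (adjusted p up to 0.116).

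PHGDH was far higher in Huh7 control cells, at 279.6, 288.0 and 279.4 CPM. It was at 142.4, 148.4 and 137.5 CPM with P. chinensis, and at 178.2, 166.9 and 163.6 CPM with B. chinense. With P. umbellatus the libraries spread from 90.0 to 185.5 CPM, and the library that stands apart was the lowest. All treated Huh7 libraries were below all controls. The fall was -0.98 (SE 0.18, adjusted p = 0.00196) with P. chinensis and -1.06 (SE 0.18, adjusted p = 0.00173) with P. umbellatus. Without the library that stands apart the P. umbellatus value was -0.84, still called. It was -0.64 with the correction for GC content and length, the smallest fall of the 21 alternative settings, and was called in all of them. With B. chinense the value of -0.74 (SE 0.18) missed the threshold (adjusted p = 0.0706) and passed it in 6 of 21 alternative settings, among them the fit without the library that stands apart (adjusted p = 0.00102).

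PSAT1 (ENSG00000135069, chr9:78297125-78330093, plus strand) encodes the aminotransferase of the second step and had the highest mean level in control cells of both lines per kilobase of its canonical transcript, overlapping with SHMT2 in Huh7 cells. Its counts are uncertain to the extent that reads are shared with the processed pseudogenes PSAT1P1 to PSAT1P4. In Huh7 control cells PSAT1 was at 430.3, 463.1 and 457.8 CPM, and with P. chinensis at 212.1, 209.0 and 200.0 CPM. With B. chinense it was at 318.4, 310.7 and 304.1 CPM, and with P. umbellatus at 305.8, 404.8 and 346.0 CPM. The order in Huh7 cells was thus control, then P. umbellatus and B. chinense, which overlapped each other, then P. chinensis. The log2 fold changes were -1.12 for P. chinensis (SE 0.087, adjusted p = 4.34e-06), -0.53 for B. chinense (SE 0.086, adjusted p = 0.0107) and -0.36 for P. umbellatus (SE 0.086, adjusted p = 0.00862). The B. chinense call was lost in 3 of 21 alternative settings (adjusted p up to 0.0628) and the P. umbellatus call in 1 (adjusted p = 0.06).

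In A549 cells PSAT1 moved less. Control libraries were at 259.2, 252.4 and 253.9 CPM and P. chinensis libraries at 196.2, 211.4 and 189.2 CPM. B. chinense libraries were at 201.9, 211.5 and 214.9 CPM, and P. umbellatus libraries at 216.0, 229.3 and 237.9 CPM. No treated library reached the control range, although the differences were small. The changes were -0.36 (SE 0.052, adjusted p = 8.73e-05), -0.28 (SE 0.052, adjusted p = 0.000842) and -0.16 (SE 0.051, adjusted p = 0.0256), and the call for P. umbellatus was lost in 8 of 21 alternative settings, with an adjusted p of up to 0.175.

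PSPH (ENSG00000146733, chr7:56011051-56051604, minus strand), the phosphatase of the last step, was called lower with P. umbellatus in both lines. Its counts may share reads with the pseudogene PSPHP1. In A549 cells it went from 43.8, 37.3 and 34.9 CPM in control to 30.9, 25.6 and 25.4 CPM with P. umbellatus, a log2 fold change of -0.49 (SE 0.12, adjusted p = 0.00768). In Huh7 cells it went from 93.1, 98.9 and 92.8 CPM to 49.3, 72.7 and 75.5 CPM, a change of -0.52 (SE 0.14, adjusted p = 0.0112). The Huh7 call was lost in a fit of the 6 libraries compared (adjusted p = 0.0634). With P. chinensis the values were -0.30 in A549 (adjusted p = 0.07) and -0.23 in Huh7 cells (adjusted p = 0.257). The former was called in 1 of 21 alternative settings (adjusted p = 0.0465) and the latter in 2, the fit of the 6 libraries and voom (lowest adjusted p 0.00436). With B. chinense the values were -0.24 (adjusted p = 0.163) and -0.16 (adjusted p = 0.736). Whether PSPH responds less than PHGDH or PSAT1 to an extract was not tested.

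In the cytosolic arm, SHMT1 (ENSG00000176974, chr17:18327860-18363563, minus strand) showed the largest differences of any member, from few and scattered counts. Its estimated counts ran from 15 to 787 per library. In A549 control cells SHMT1 was at 12.9, 38.2 and 15.5 CPM, with P. chinensis at 4.68, 6.69 and 5.27 CPM, and with B. chinense at 5.51, 9.83 and 7.45 CPM. These groups did not overlap with control, whereas the P. umbellatus libraries, at 7.16, 27.1 and 11.7 CPM, did. The log2 fold changes were -1.97 (SE 0.48, adjusted p = 0.00516), -1.53 (SE 0.47, adjusted p = 0.0243) and -0.55 (SE 0.44, adjusted p = 0.398). Control replicate 2 was the highest library. Without it the changes were -1.33 with P. chinensis, still called, -0.89 with B. chinense (adjusted p = 0.162) and 0.092 with P. umbellatus. Without P. umbellatus replicate 2 the P. umbellatus value was -1.26 and called (adjusted p = 0.0413).

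In Huh7 control cells SHMT1 was at 11.0, 35.1 and 32.8 CPM. It was at 4.295, 8.995 and 5.999 CPM in P. chinensis libraries, at 8.75, 7.20 and 8.99 CPM in those of B. chinense, and at 6.59, 2.16 and 5.89 CPM in those of P. umbellatus. All treated libraries were below all controls, although control replicate 1 came close to the treated range. SHMT1 fell by 2.01 on the log2 scale (SE 0.43, adjusted p = 0.00506) with P. chinensis and by 2.37 (SE 0.46, adjusted p = 0.00293) with P. umbellatus. With B. chinense the value was -1.65 (SE 0.43, adjusted p = 0.0926), which was called in 5 of 21 alternative settings, among them the fit without the library that stands apart (adjusted p = 0.023). The P. umbellatus value was -2.06 without the library that stands apart, still called, and the call was lost with limma's voom (adjusted p = 0.0928). SHMT1 has a processed pseudogene, SHMT1P1, with which reads could be shared.

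MTHFD1 (ENSG00000100714, chr14:64388031-64463457, plus strand) encodes the cytosolic enzyme with 3 activities that interconverts the folate one-carbon forms. In A549 cells it was at 226.4, 214.0 and 228.2 CPM in control and at 148.4, 163.0 and 148.5 CPM with P. chinensis. It was at 161.8, 158.8 and 170.3 CPM with B. chinense, and at 168.2, 147.3 and 160.5 CPM with P. umbellatus. The 3 extracts gave levels that overlapped each other and lay well under control. The changes were -0.54 (SE 0.058, adjusted p = 6.23e-06), -0.45 (SE 0.059, adjusted p = 5.49e-05) and -0.49 (SE 0.058, adjusted p = 2.12e-05), and each held in all 21 alternative settings. In Huh7 cells, where control was at 111.0, 113.8 and 113.8 CPM, P. chinensis gave a call, at 81.6, 85.7 and 81.8 CPM (-0.44, SE 0.13, adjusted p = 0.0276). That call was lost when any library of these groups was left out (adjusted p up to 0.087). The values with B. chinense and P. umbellatus were -0.31 (adjusted p = 0.335) and -0.30 (adjusted p = 0.0889), and they were called in 3 and 2 of 21 alternative settings. Without the library that stands apart the B. chinense value was -0.31 and called (adjusted p = 0.0194), and the P. umbellatus value was -0.14 (adjusted p = 0.206).

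In the mitochondrial arm, SHMT2 (ENSG00000182199, chr12:57229573-57234935, plus strand) encodes the enzyme that feeds the arm from serine. In Huh7 cells SHMT2 was at 391.4, 436.2 and 408.7 CPM in control and at 198.3, 200.3 and 200.0 CPM with P. chinensis. It was at 279.5, 264.0 and 278.2 CPM with B. chinense, and at 227.9, 180.8 and 257.3 CPM with P. umbellatus. The level with P. chinensis was thus near 0.484 of control, and the 3 P. chinensis libraries were nearly equal. The changes were -1.05 (SE 0.1, adjusted p = 2.22e-05), -0.59 (SE 0.1, adjusted p = 0.013) and -0.89 (SE 0.1, adjusted p = 0.000321). The B. chinense call was lost in 5 of 21 alternative settings (adjusted p up to 0.0842). The P. umbellatus value ranged from -1.01 to -0.56 over these settings and was called in all of them.

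In A549 cells SHMT2 changed less, from 115.7, 109.2 and 126.0 CPM in control to 91.0, 88.8 and 79.2 CPM with P. chinensis. It was at 102.3, 94.6 and 91.6 CPM with B. chinense, and at 95.7, 100.6 and 100.3 CPM with P. umbellatus. All treated libraries were below all controls. The changes were -0.44 (SE 0.07, adjusted p = 0.000212), -0.28 (SE 0.07, adjusted p = 0.0077) and -0.24 (SE 0.069, adjusted p = 0.0157). The call for P. umbellatus was lost in 2 of 21 alternative settings (adjusted p up to 0.0801).

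MTHFD2 (ENSG00000065911, chr2:74186172-74217565, plus strand) encodes the mitochondrial dehydrogenase and cyclohydrolase that is known to be high in embryonic and tumour cells. In A549 cells it was at 188.2, 156.8 and 179.6 CPM in control, at 123.0, 116.9 and 110.9 CPM with P. chinensis, and at 110.6, 93.2 and 85.9 CPM with B. chinense. P. umbellatus libraries were at 109.0, 122.6 and 132.7 CPM. All 9 treated libraries were below all controls, and MTHFD2 had the largest fall of the mitochondrial genes in this line with each extract. The changes were -0.58 (SE 0.095, adjusted p = 0.00027), -0.85 (SE 0.096, adjusted p = 1.46e-05) and -0.53 (SE 0.094, adjusted p = 0.000685), and each held in all 21 alternative settings.

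In Huh7 cells MTHFD2 was at 104.9, 117.2 and 109.0 CPM in control and at 63.9, 66.9 and 62.7 CPM with P. chinensis, a change of -0.77 (SE 0.14, adjusted p = 0.00169). With B. chinense it was at 96.7, 82.3 and 90.6 CPM (-0.30, SE 0.14, adjusted p = 0.405), a value that was called without the library that stands apart (adjusted p = 0.0175). P. umbellatus libraries were at 105.1, 163.2 and 111.2 CPM. They overlapped with control, and the highest was the library that stands apart. The P. umbellatus value was 0.19 (SE 0.14, adjusted p = 0.282), and -0.027 without that library. MTHFD2 has 7 pseudogenes, MTHFD2P1 to MTHFD2P7, with which reads could be shared.

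MTHFD1L (ENSG00000120254, chr6:150865679-151101887, plus strand) encodes the mitochondrial formyltetrahydrofolate synthetase that releases formate. Its levels in A549 cells were 75.0 to 82.3 CPM in control, 67.6 to 70.7 CPM after P. chinensis, 60.9 to 69.1 CPM after B. chinense and 58.4 to 65.8 CPM after P. umbellatus. The changes were small, at -0.19 (SE 0.07, adjusted p = 0.0492), -0.25 (SE 0.07, adjusted p = 0.0148) and -0.34 (SE 0.07, adjusted p = 0.00218). The P. chinensis call rests on its margin, and was lost in 16 of 21 alternative settings with an adjusted p of up to 0.202. The B. chinense call was lost in 3 of them (adjusted p up to 0.0738). In Huh7 cells control libraries were at 129.7, 142.3 and 147.2 CPM and P. chinensis libraries at 107.9, 112.1 and 99.2 CPM (-0.39, SE 0.074, adjusted p = 0.00259). The values with B. chinense (-0.24, adjusted p = 0.183) and P. umbellatus (-0.077, adjusted p = 0.442) were not called. The former was called in 4 of 21 alternative settings, among them the fit without the library that stands apart (-0.24, adjusted p = 0.0475).

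ALDH1L2 (ENSG00000136010, chr12:105019784-105107643, minus strand) encodes the mitochondrial formyltetrahydrofolate dehydrogenase, which is known to return one-carbon units as carbon dioxide while making NADPH. In A549 cells control libraries were at 14.8, 19.6 and 19.2 CPM, and the P. chinensis and B. chinense libraries, from 16.48 to 20.02 CPM and from 17.5 to 19.8 CPM, overlapped with them. The values were -0.012 (SE 0.13, adjusted p = 0.958) and 0.059 (SE 0.13, adjusted p = 0.791). The P. umbellatus libraries, at 22.48, 24.04 and 21.2 CPM, were all above control, by 0.33 (SE 0.13), which missed the threshold (adjusted p = 0.0685) and passed it in 1 of 21 alternative settings, upper quartile normalization. In Huh7 cells ALDH1L2 was lower with P. chinensis, from 31.5, 27.0 and 27.3 CPM in control to 14.2, 14.8 and 15.6 CPM, a change of -0.94 (SE 0.11, adjusted p = 0.000118) that held in all 21 alternative settings. With B. chinense the value was -0.50 (SE 0.12, adjusted p = 0.0575), which was called in 7 of 21 alternative settings, among them the fit without the library that stands apart (adjusted p = 0.00837). With P. umbellatus it was -0.12 (SE 0.12, adjusted p = 0.413).

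**Figure D2:**
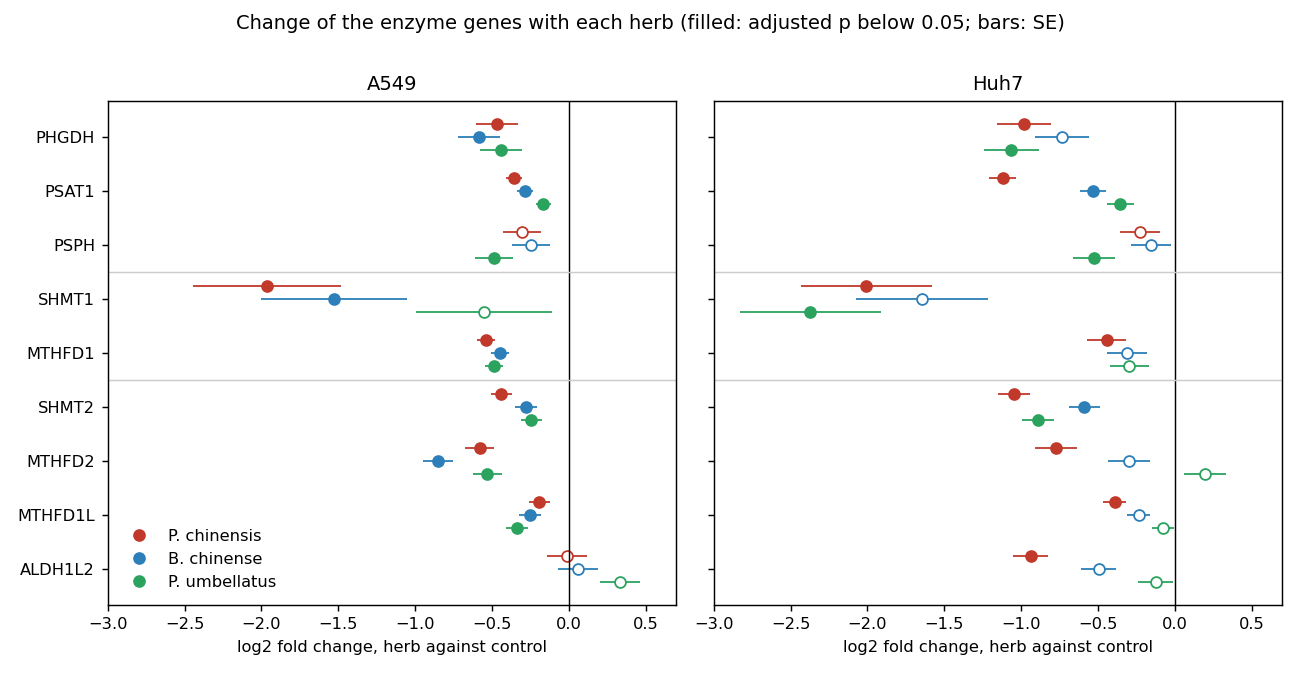
Log2 fold change of each enzyme gene with each herb against control (horizontal axis) in A549 and Huh7 cells, with bars for the SE and filled points where the adjusted p was below 0.05. Grey lines part serine synthesis, the cytosolic arm and the mitochondrial arm, and 51 of the 54 points lie left of 0.

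The direct comparison of the extracts asked whether they differ among themselves. In A549 cells edgeR called 0 of 9 members between P. chinensis and B. chinense (1.45% of all genes were called), 0 between P. chinensis and P. umbellatus (3.01%) and 0 between B. chinense and P. umbellatus (0.0513%). At an unadjusted p under 0.05 there were 2, 4 and 2 members, and DESeq2 called 1 member, between P. chinensis and P. umbellatus. The differences between extracts ran from -1.42 (SE 0.48), for SHMT1 between P. chinensis and P. umbellatus, to 0.27 (SE 0.098), for MTHFD2 between P. chinensis and B. chinense. The SE ran from 0.0514 to 0.511 over members, and the lack of a call does not show that the extracts gave equal levels. In Huh7 cells 3 members were lower with P. chinensis than with B. chinense (3.91% of all genes were lower), namely PSAT1 (-0.59, adjusted p = 0.0016), SHMT2 (-0.46, adjusted p = 0.0166) and ALDH1L2 (-0.44, adjusted p = 0.0357). Against P. umbellatus, 4 members were lower with P. chinensis (18.8% of all genes were lower), namely PSAT1 (-0.77, adjusted p = 0.000218), MTHFD2 (-0.97, adjusted p = 0.000562), ALDH1L2 (-0.81, adjusted p = 0.000562) and MTHFD1L (-0.32, adjusted p = 0.00711). Without the library that stands apart these counts were 4 and 6, and the first was 1 without any 1 of 5 libraries of its groups. Between B. chinense and P. umbellatus, SHMT2 was higher and MTHFD2 and ALDH1L2 lower with B. chinense (27.3% of all genes called), and the count was 2 without that library, with a range of 0 to 5 over libraries left out.

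The lines were compared before treatment as well. In control cells 8 of 9 members differed between A549 and Huh7, where 70.7% of all genes did. A549 cells had less of all 3 serine synthesis genes, by -2.78 on the log2 scale for PHGDH (SE 0.18, adjusted p = 3.12e-12), -1.32 for PSPH (SE 0.13, adjusted p = 1.08e-08) and -0.84 for PSAT1 (SE 0.072, adjusted p = 6.28e-10). They also had less SHMT2 (-1.84), MTHFD1L (-0.85) and ALDH1L2 (-0.69), and more MTHFD1 (0.96, SE 0.1, adjusted p = 2.63e-08) and MTHFD2 (0.64, SE 0.12, adjusted p = 8.02e-05). SHMT1 overlapped between the lines (-0.25, SE 0.46, adjusted p = 0.635).

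Per kilobase of canonical transcript, on CPM normalised over all 24 libraries, PSAT1 led in A549 control cells (114.9 ± 0.651, SD, n = 3), followed by MTHFD1 (70.2 ± 2.28), SHMT2 (53.8 ± 4.02) and MTHFD2 (39.4 ± 3.43), with no overlap between these neighbours. MTHFD1L, PHGDH and PSPH came next, at 22.6, 22.0 and 19.4 CPM per kilobase, and neighbours among these overlapped. SHMT1 (8.74 ± 5.51) and ALDH1L2 (2.39 ± 0.372) were lowest. In Huh7 control cells the order was PSAT1 (205.6 ± 8.03) and SHMT2 (192.4 ± 10.7), which overlapped, then PHGDH (152.4 ± 2.78), PSPH, MTHFD1L, MTHFD1, MTHFD2, SHMT1 and ALDH1L2 (3.87 ± 0.339). These levels per length depend on which transcript length is taken for a gene. With the median transcript length in place of the canonical one, SHMT2 was at 505.4 to 563.7 CPM per kilobase in Huh7 control cells, above PSAT1 at 239.7 to 258.2, and the ranges overlapped in A549 cells (139.7 to 161.3 and 139.3 to 140.8).

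The difference between the lines in response to an extract was tested as an interaction in a joint fit of all 24 libraries. A positive value means that the gene fell less, or rose more, in A549 than in Huh7 cells. With P. chinensis 3 of 9 members differed (19.6% of all genes), all with the deeper fall in Huh7 cells. These were ALDH1L2 (0.98, SE 0.17, adjusted p = 0.000222), PSAT1 (0.82, SE 0.1, adjusted p = 6.17e-06) and SHMT2 (0.66, SE 0.13, adjusted p = 0.000738), and each held in all 31 alternative settings. PHGDH gave 0.57 (SE 0.24, adjusted p = 0.105), and without the library that stands apart 0.53, which was called (adjusted p = 0.0262) and made 4 members. The 2 cytosolic genes gave 0.082 for SHMT1 (SE 0.69) and -0.043 for MTHFD1 (SE 0.14), and the wide SE of SHMT1 leaves room for a difference.

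With B. chinense 1 member differed between the lines (11.6% of all genes), ALDH1L2 at 0.60 (SE 0.17, adjusted p = 0.0253), a call lost in 5 of 31 alternative settings. Without the library that stands apart 4 members differed (18.7% of all genes), ALDH1L2 (0.58, adjusted p = 0.011), PSAT1 (0.28, adjusted p = 0.011), SHMT2 (0.34, adjusted p = 0.0104) and MTHFD2 (-0.53, adjusted p = 0.00481). With P. umbellatus 6 members differed (34.4% of all genes). SHMT2 (0.73, SE 0.13, adjusted p = 0.000237), ALDH1L2 (0.54, SE 0.17, adjusted p = 0.0171), PHGDH (0.70, SE 0.24, adjusted p = 0.0276), PSAT1 (0.27, SE 0.1, adjusted p = 0.0442) and SHMT1 (1.90, SE 0.70, adjusted p = 0.0376) were the lower in Huh7 cells by comparison, and MTHFD2 (-0.64, SE 0.18, adjusted p = 0.00821) the lower in A549 cells. The values for PHGDH and SHMT1 were 0.43 and 1.54, no longer called, without the library that stands apart, whereas MTHFD1 went from -0.11 (adjusted p = 0.582) to -0.32 and was then called (adjusted p = 0.0186). The PSAT1 call was lost in 21 of 31 alternative settings, the PHGDH call in 8, the SHMT1 call in 7 and the ALDH1L2 call in 4. PHGDH was lowest with the correction for GC content and length (0.286). SHMT1 was lowest without A549 P. umbellatus replicate 2 (1.182).

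**Figure D3:**
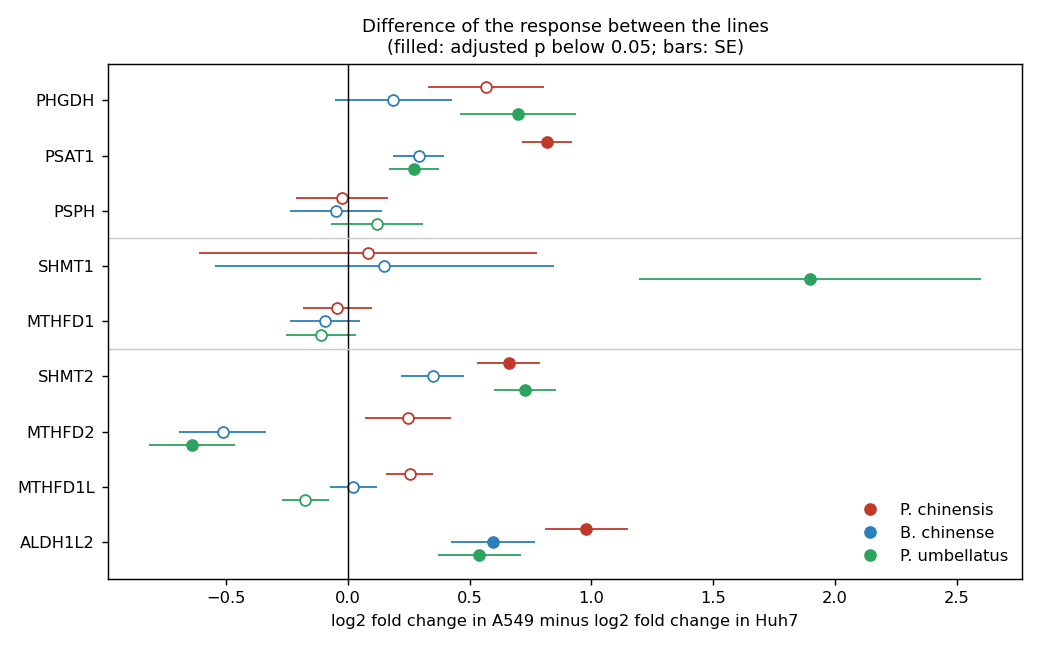
Difference of the log2 fold change between the lines, A549 minus Huh7 (horizontal axis), for each enzyme gene and extract, with bars for the SE and filled points where the adjusted p was below 0.05. ALDH1L2 and SHMT2 lie right of 0 with every extract, MTHFD1 lies near 0, and MTHFD2 lies on either side.

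The balance of the arms was described by the ratio of a mitochondrial to a cytosolic enzyme within each library, per kilobase, on the log2 scale and without a test. SHMT2 exceeded SHMT1 in every library. In A549 cells the ratio was 2.80 ± 0.91 (SD, n = 3) in control, 4.20 ± 0.28 after P. chinensis and 3.93 ± 0.48 after B. chinense, without overlap. With P. umbellatus it was 3.14 ± 0.94 and overlapped with control. The differences from control were 1.41, 1.13 and 0.35 in the same order, and 0.88, 0.61 and -0.18 without control replicate 2. In Huh7 cells the ratio was 4.37 ± 0.88 in control and between 5.25 and 5.88 with the extracts, all overlapping with control. The differences from control were 0.878, 0.905 and 1.506 in the same order. Control replicate 1 was at 5.383, and the other control libraries were at 3.865 and 3.867, below all treated libraries. Without control replicate 1 the differences were 1.384, 1.411 and 2.012. SHMT1 holds the fewest counts of the genes in these ratios.

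MTHFD2 to MTHFD1 was at -0.84 ± 0.092 in A549 control cells and lower with B. chinense, by -0.41, with no overlap. It was close to control with P. chinensis (-0.037) and P. umbellatus (-0.035). In Huh7 cells it was lower with P. chinensis, by -0.33, with no overlap, and close to control with B. chinense (0.019). The ratio was therefore below control without overlap in 1 group of each line. With P. umbellatus in Huh7 cells the ratio lay 0.49 above control and overlapped with it, with an SD of 0.67 and the library that stands apart at 0.75. Without that library the difference was 0.11. MTHFD1L to MTHFD1 was -1.63 ± 0.029 in A549 control cells and higher with P. chinensis (by 0.35) and B. chinense (by 0.19), without overlap. In Huh7 control cells it was 0.18 ± 0.074, and every treated group overlapped with control. The levels of these ratios, unlike the differences, depend on transcript length, and with the median transcript length of each gene MTHFD2 to MTHFD1 became positive in control cells, at 0.25 in A549 and 0.57 in Huh7 cells.

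**Figure D4:**
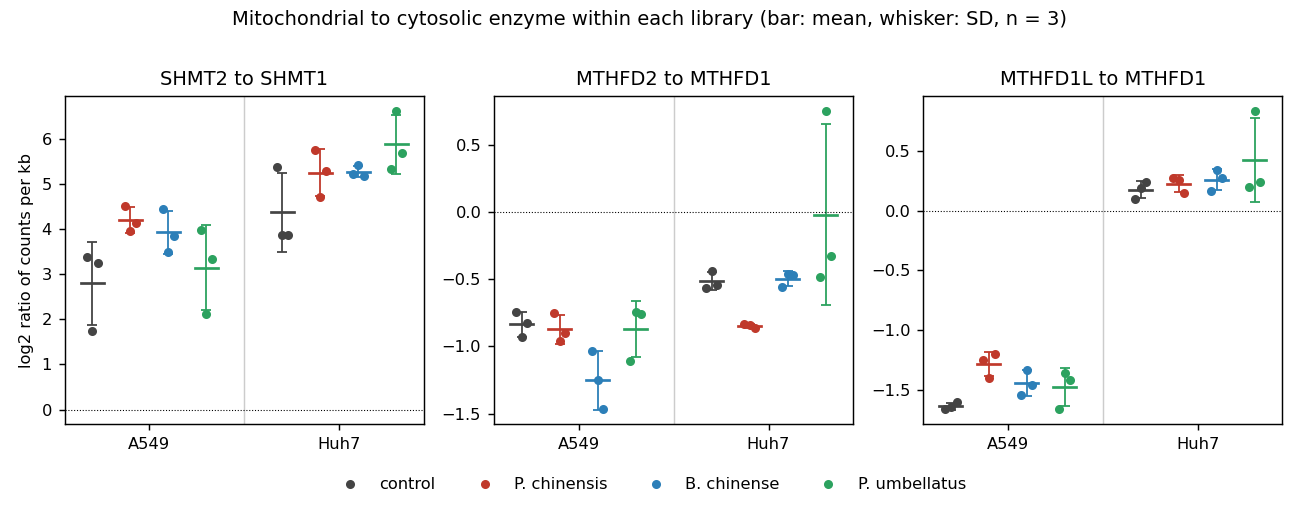
Log2 ratio of a mitochondrial to a cytosolic enzyme within each library, in counts per kilobase, for 3 pairs, by line and treatment, with points for replicates, bars for means and whiskers for the SD (n = 3). MTHFD1L to MTHFD1 parts the lines, lying below -1.2 in all A549 libraries and above 0 in all Huh7 libraries.

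The other genes of folate metabolism, a list of 18 of which 16 were tested in A549 and 17 in Huh7 cells, were called as follows. In A549 cells 6 were lower and 0 higher after P. chinensis, 6 and 0 after B. chinense, and 6 and 1 after P. umbellatus, with list medians of -0.28, -0.28 and -0.24. Over all genes 17.1%, 15% and 14.8% were lower there. GGH, which removes glutamates from folates, changed by -0.84, -0.63 and -0.78, and the folate carrier SLC19A1 by -0.64, -0.47 and -0.31. TYMS, thymidylate synthase, changed by -0.55, -0.37 and -0.39. SFXN1, a mitochondrial serine carrier, changed by -0.38, -0.28 and -0.25, and all of these were called.

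In Huh7 cells 3 of these folate genes were lower and 0 higher after P. chinensis, edgeR called 0 after B. chinense (0 at an unadjusted p under 0.05), and 5 were lower and 1 higher after P. umbellatus, beside 10.5%, 0.757% and 17.8% of all genes that were lower. TYMS changed by -0.42 (adjusted p = 0.00451) with P. chinensis and -0.31 (adjusted p = 0.0155) with P. umbellatus. SLC19A1 changed by -0.78 with P. chinensis and -1.07 with P. umbellatus. FPGS, which adds glutamates to folates, changed by -1.16 with P. umbellatus (adjusted p = 0.0169). In A549 cells it was higher by 0.35 with the same extract (adjusted p = 0.0198), and no interaction value is given here. The Huh7 P. umbellatus group holds the library that stands apart, and these folate genes were not assessed without it. MTHFD2L, the paralogue of MTHFD2, averaged 7.7 counts and gave no call. In the glycine cleavage system none of 3 genes was called in A549 cells (0, 0 and 1 at an unadjusted p under 0.05), and in Huh7 cells AMT was lower with P. chinensis (-0.62, adjusted p = 0.000704) and AMT and GLDC with P. umbellatus (-0.72, adjusted p = 0.000773, and -0.61, adjusted p = 0.0107).

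Of 20 genes of the amino acid stress response, many of which share the regulator ATF4 with the serine enzymes, some fell and some rose. With the extracts in the same order, 8, 8 and 7 were lower and 5, 5 and 5 higher in A549 cells. In Huh7 cells 10, 4 and 10 were lower and 4, 0 and 2 higher. The shares of all genes are those given with the folate genes for lower calls and with the enzymes for higher calls. ASNS, asparagine synthetase, was lower in all 6 comparisons, by -0.22 (adjusted p = 0.0448), -0.52 and -0.37 in A549 and by -1.08 (adjusted p = 1.05e-05), -0.85 and -0.43 in Huh7 cells. ATF4 mRNA was lower in A549 cells (-0.34, -0.52 and -0.38) and in Huh7 cells with P. umbellatus (-0.31, adjusted p = 0.00976), and its values were -0.10 (adjusted p = 0.401) and -0.18 (adjusted p = 0.359) with the others. PYCR1, which makes proline, was lower in A549 cells with every extract (-0.49, -0.56 and -0.52).

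Other genes of this list were higher in the same libraries. ATF3, an early stress factor, was higher in A549 cells by 3.003, 1.89 and 1.67 (adjusted p = 9.55e-06, 0.000905 and 0.00201) and in Huh7 cells by 1.82 with P. chinensis (adjusted p = 5.21e-06). DDIT3, a stress factor linked to cell death, was higher with P. chinensis by 1.57 in A549 (adjusted p = 0.000425) and 1.29 in Huh7 cells (adjusted p = 2.87e-05). SESN2, a stress gene also known as a p53 target, was higher with every extract in A549 cells, by 1.69, 1.39 and 1.15. STC2, a secreted glycoprotein, was higher in A549 cells (0.59, 0.90 and 0.84) and lower in Huh7 cells (-0.61, -0.70 and -0.57), and the interactions were 1.25, 1.64 and 1.49 (adjusted p = 6.06e-06, 7.04e-07 and 9.09e-07).

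**Figure D5:**
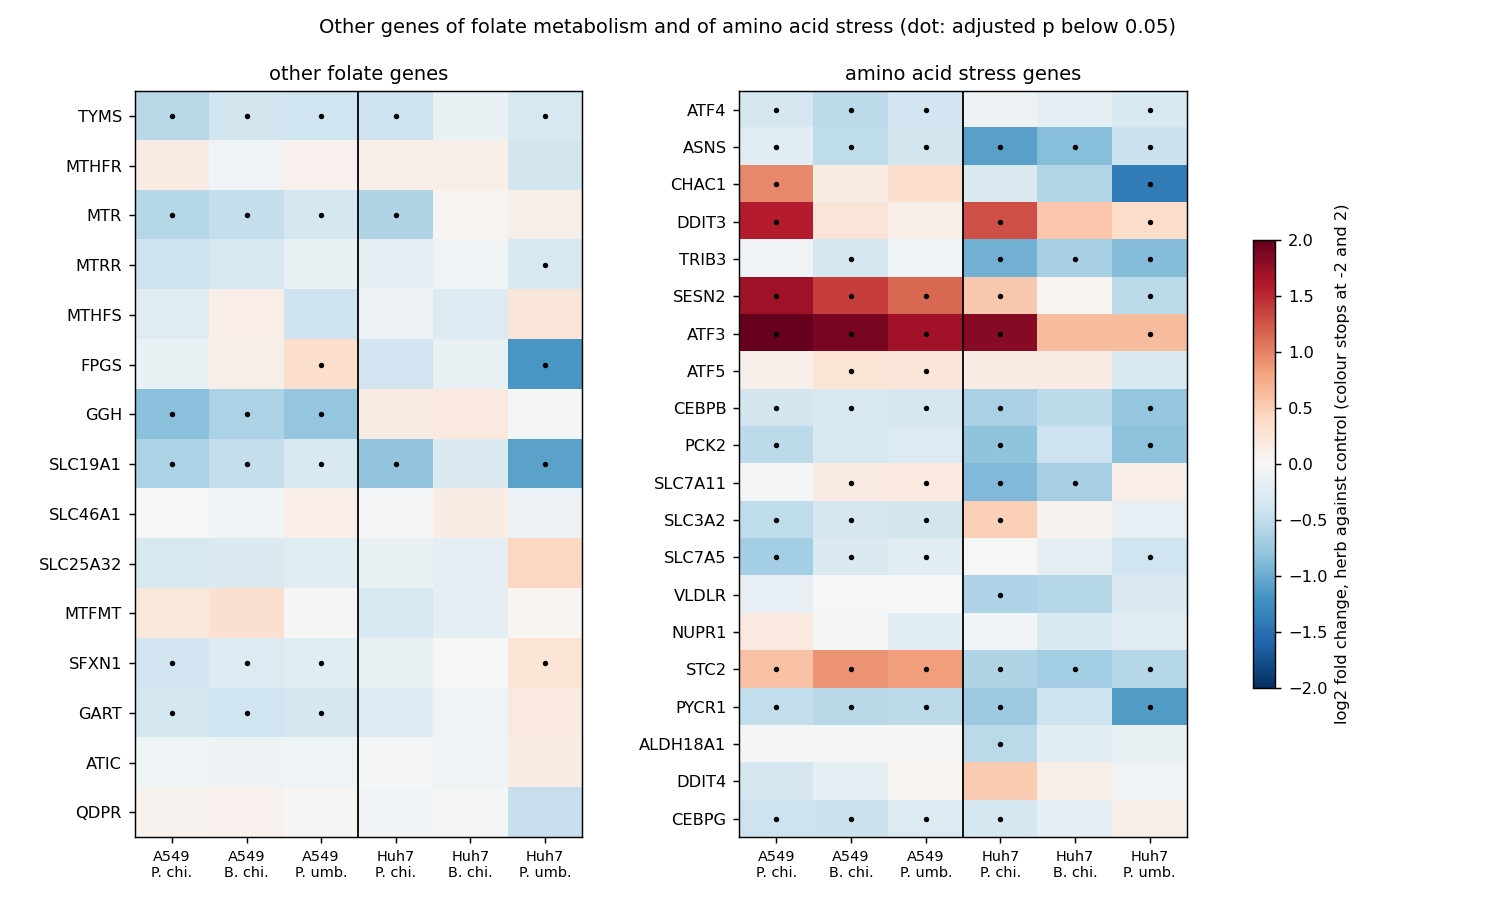
Log2 fold changes (colour, red higher and blue lower than control) of the other folate genes and the amino acid stress genes with each extract in each line, with dots where the adjusted p was below 0.05 and low-count genes left out. ATF3 is the reddest stress gene in A549 cells.

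Markers of cell types moved in the same libraries. The summed level of 10 hepatocyte markers, ALB among them, was 22270 to 22850 CPM in Huh7 control cells and 13670 to 14410 CPM after P. chinensis. It was 20010 to 20610 CPM after B. chinense and 20040 to 24450 CPM after P. umbellatus. APOB held the largest part of this sum, at 5485 to 14150 CPM over the Huh7 libraries, and ALB was at 2751 to 4879 CPM. Of the 10, 5, 1 and 6 were called lower, against 10.5%, 0.757% and 17.8% of all genes. At an unadjusted p under 0.05, 6, 3 and 6 were lower and 1, 1 and 2 higher. In A549 cells the same markers summed to 141.3 to 154.1 CPM in control and to 70.5 to 91.6 CPM with the extracts. Most of this sum was HNF4A (44.76 to 123.5 CPM over the A549 libraries) and TF (20.63 to 34.21 CPM). The next marker, FGB, reached at most 7.891 CPM. Of 5 tested, 2 were called lower with each, against 17.1%, 15% and 14.8% of all genes. With P. chinensis 3 of the 5 values were positive, none of them called. At an unadjusted p under 0.05, 1, 1 and 0 of the 5 were higher with the extracts in the same order. Fibroblast markers, 4 genes, summed to 8.22 to 10.7 CPM in Huh7 control cells and to 16.2 to 24.6 CPM with P. chinensis. There 2 were called higher, against 10.5% of all genes. These markers summed to at most 11.1 CPM with the other extracts and 8.35 CPM in A549 libraries. Leukocyte markers, of which 2 of 4 were in the table, summed to at most 4.42 CPM in any library. Of 3 endothelial markers 1 was in the table, PECAM1, at 31.85 to 55.86 CPM in Huh7 and at most 3.101 CPM in A549 libraries. The part of these shifts in the enzymes' values was not tested.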

How the data were processed

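RNA was sequenced in 24 libraries of the A549 and Huh7 cell lines. Per the labels and the study's methods, total RNA was depleted of ribosomal RNA and made into stranded libraries. Reads were pseudoaligned by the authors with kallisto to transcripts of GRCh38.p13. Expected counts per gene were deposited as whole numbers and without normalization for library size, for genes that code for protein and average more than 5 counts. Whether kallisto used strand is not given in the sources used here. The table has 24 columns of samples, all of which were used.

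From these counts, genes averaging more than 5 over the 12 libraries of a line were normalised by TMM and fitted with edgeR 4.0.16 in R 4.3.3 (quasi-likelihood test, 1 coefficient per group, prior count 2, two-sided, Benjamini-Hochberg adjustment, threshold 0.05). This gave 13633 genes in A549 and 13875 in Huh7 cells. Interactions were fitted over the 12924 genes tested in both lines, and the lines' controls over 14584 genes. The script was tested on simulated data. The members and the gene lists were chosen with earlier results of these data known. All members are named, and from each list up to 3 called genes with the largest change per comparison. TYMS, MTHFD2L, SFXN1, ATF4, ASNS and MYC were to be named as well. SFXN1 is given for A549 cells alone, and TYMS not for B. chinense in Huh7 cells. Genes of like pattern are the 3 with the highest Pearson r over the 24 libraries, centred within a line, among genes averaging 50 counts or more. Named genes outside this rule (GGH, SLC19A1, PYCR1 and others) were chosen after their values were seen. Some genes of these lists and patterns are not reported here, and the list counts leave them out.

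The alternatives were DESeq2 1.42.0, RLE and upper quartile normalization, voom with sample quality weights (limma 3.58.1), other filters on low counts, a fit of only the 6 libraries compared, a block for the replicate number, adjustment for GC content and length, and leaving out each replicate in turn. Totals were 6803704 to 24345541 counts per library, and precision was taken from the spread between replicates. Gene positions and lengths come from the GENCODE annotation of GRCh38, and promoter windows from RefSeq (GRCh38.p14).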

Additional observations from a re-analysis of the deposited data

Results flagged for a closer look

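In groups of 3 no single library could be tested as an outlier. The results set out here are the members whose response to an extract differed between the lines by the interaction test, given as the A549 minus the Huh7 log2 fold change. With P. chinensis the differences were 0.82 for PSAT1 (adjusted p = 6.17e-06), 0.66 for SHMT2 (adjusted p = 0.000738) and 0.98 for ALDH1L2 (adjusted p = 0.000222). With B. chinense the difference was 0.60 for ALDH1L2 (adjusted p = 0.0253). With P. umbellatus the differences were 0.70 for PHGDH (adjusted p = 0.0276), 0.27 for PSAT1 (adjusted p = 0.0442), 1.90 for SHMT1 (adjusted p = 0.0376), 0.73 for SHMT2 (adjusted p = 0.000237), -0.64 for MTHFD2 (adjusted p = 0.00821) and 0.54 for ALDH1L2 (adjusted p = 0.0171).

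Over all genes 19.6%, 11.6% and 34.4% differed between the lines with the extracts in this order. ALDH1L2 is the member on this list with every extract. Without the library that stands apart, PSAT1 (0.78, 0.28 and 0.34) and SHMT2 (0.62, 0.34 and 0.56) were also called with every extract. The values for PSAT1 and SHMT2 with P. chinensis came with falls in both lines, while MTHFD2 with P. umbellatus was called lower in A549 cells and was not called in Huh7 cells. Without replicate 2 of the Huh7 P. umbellatus group, the library that stands apart, the P. umbellatus differences of PHGDH (0.43) and SHMT1 (1.54) were no longer called. That of MTHFD1 (-0.32) was then called. The P. umbellatus call of PSAT1 was lost in 21 of 31 alternative settings, that of PHGDH in 8, that of SHMT1 in 7 and that of ALDH1L2 in 4.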

How the results depend on the processing

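Of the 36 calls of a member against control, 23 held in all 21 alternative settings, 13 were lost in at least 1 of them and 0 changed direction. Counts of members called are listed in full here only where a setting moved them by a large factor, and the cause was not tested. Among smaller moves, the A549 P. chinensis count was 6 with DESeq2, RLE or upper quartile normalization. It was also 6 with other filters on low counts or only the 6 libraries compared. Over these settings 30.2% to 39.5% of all genes were called. The A549 B. chinense count was 6 with upper quartile normalization (27.6%) or voom (28.2%). The Huh7 P. umbellatus count was 7 with the GC and length correction (19.4%) and 4 with voom (33.6%). With DESeq2 the count was 1 in A549 cells for P. chinensis against P. umbellatus (5.51% of all genes called in either direction). It was 5 in Huh7 cells for B. chinense against control (3.71%), and 3 for the B. chinense interaction (14.7%). That interaction count was 2 with a mean count of at least 50 (14.1%), and 4 with the correction for GC content and length (17.9%). The Huh7 B. chinense count was 6 with that correction (6.09%). It was 8 with only the 6 libraries compared (8.09%) and 7 with voom (8.86%), beside 1.28% in the main fit. The Huh7 P. umbellatus count was 3 with only the 6 libraries (8.84%, beside 37.0% in the main fit).

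Leaving out each library in turn, members called ranged from 4 to 7 for P. umbellatus in A549 cells, with 4 without control replicate 3 or P. umbellatus replicate 1. They ranged from 5 to 8 for P. chinensis and from 5 to 7 for B. chinense in A549 cells. In Huh7 cells they ranged from 7 to 8 for P. chinensis, from 5 to 6 for P. umbellatus and from 4 to 6 between these extracts. They ranged from 0 to 1 for P. chinensis against P. umbellatus in A549 cells, with 1 without P. chinensis replicate 2. For B. chinense in Huh7 cells they ranged from 0 to 8, with 8 without P. umbellatus replicate 2, 4 without P. umbellatus replicate 3, 1 without B. chinense replicate 1 or 2, and 0 without B. chinense replicate 3 or control replicate 2 or 3. In Huh7 cells they ranged from 1 to 4 between P. chinensis and B. chinense, with 1 without any P. chinensis replicate or B. chinense replicate 1 or 3, and from 0 to 5 between B. chinense and P. umbellatus, with 5 without P. umbellatus replicate 3, 0 without any B. chinense replicate, and 1 without P. chinensis replicate 1 or 2 or control replicate 2 or 3. The B. chinense interaction ranged from 0 to 4, with 0 without A549 B. chinense replicate 2, A549 control replicate 1, Huh7 B. chinense replicate 1 or 2 or Huh7 control replicate 1, 2 without A549 B. chinense replicate 1, and 3, 4 and 3 without Huh7 P. umbellatus replicates 1, 2 and 3. The P. umbellatus interaction ranged from 2 to 6, with 2 without A549 control replicate 1, and 3 without any Huh7 control replicate or Huh7 P. umbellatus replicate 1.

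Values that were not called changed sign in these settings. ALDH1L2 in A549 cells with P. chinensis was 0.055 with upper quartile normalization and 0.014 with a mean count of at least 50, and ranged from -0.123 to 0.057 over libraries left out, and with B. chinense from -0.053 to 0.127. SHMT1 in A549 cells with P. umbellatus ranged from -1.26 to 0.092. MTHFD2 in Huh7 cells with P. umbellatus was -0.10 with the GC and length correction and -0.007 with voom, and ranged from -0.027 to 0.31. The PSPH interaction with P. chinensis was 0.012 with no filter and 0.038 with the GC and length correction, and ranged from -0.092 to 0.071, and it ranged from -0.13 to 0.062 with B. chinense and from -0.098 to 0.21 with P. umbellatus. The SHMT1 interaction ranged from -0.21 to 0.72 with P. chinensis and from -0.12 to 0.79 with B. chinense. The MTHFD1L interaction with B. chinense ranged from -0.032 to 0.076, and SHMT1 between the controls of the lines from -0.90 to 0.017.

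The replicate numbers did not pair the groups, and 3 of 12 A549 and 4 of 12 Huh7 libraries correlated best with a library of their own number. Same-numbered libraries correlated between -0.125 and 0.066 in A549 and between -0.058 and 0.111 in Huh7 cells, and 1 of 18 such pairs exceeded 0.1 in Huh7 and 0 in A549 cells. With the replicate block the counts against control were 7, 7 and 7 in A549 and 8, 2 and 5 in Huh7 cells, and the count for P. chinensis against P. umbellatus in A549 cells was 1. SHMT1 is limited by depth, with as few as 15 counts in a library, and ALDH1L1 gave no ratio with ALDH1L2 since it was not analysed here.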

Other observations

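Of 10 tested genes of serine and glycine transport and use, 3, 3 and 1 were called lower in A549 cells with the extracts in the order used above, beside 17.1%, 15% and 14.8% of all genes, and 1 was higher with each. In Huh7 cells 3, 2 and 5 were lower, beside 10.5%, 0.757% and 17.8% of all genes, and 0, 0 and 2 higher. SLC1A4, a carrier of serine and alanine, was lower with P. chinensis in A549 (-0.48, adjusted p = 0.00909) and Huh7 cells (-0.69, adjusted p = 0.000171). The glycine carrier SLC6A9 was lower in Huh7 cells with all 3 extracts, by -1.17, -0.69 and -1.13 (adjusted p = 0.000143, 0.0383 and 0.000606), and its values in A549 cells were -0.015, -0.077 and 0.15, none called. In the methionine cycle and transsulfuration list, CBS, which condenses serine with homocysteine, was lower in Huh7 cells with P. chinensis (-0.78, adjusted p = 8.95e-05) and P. umbellatus (-0.63, adjusted p = 0.000961). In that list 2, 1 and 0 of 9 genes were lower and 0 higher in A549 cells, counts near or under the shares of all genes given here, and 5, 0 and 3 of 11 were lower and 0, 0 and 3 higher in Huh7 cells.

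Among regulators, the p53 targets CDKN1A and MDM2 were higher in A549 cells by 2.54 and 1.97 with P. chinensis, and E2F1 was lower by -1.36 (adjusted p = 5.51e-11, 5.51e-11 and 4.54e-08). MYC was lower in A549 cells with each extract (-0.26, -0.25 and -0.24) and gave values of 0.26, 0.15 and 0.10 in Huh7 cells, none called.

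The genes most like 8 of the members over the 24 libraries, centred within a line, are given as a description. PDIA4 (r = 0.962), GPI (r = 0.96) and FADS2 (r = 0.953) were most like SHMT2. BCAT1 (r = 0.949), FADS1 (r = 0.931) and RDH11 (r = 0.914) were most like PSAT1, and BUB3 (r = 0.938), XPOT (r = 0.935) and CHP1 (r = 0.928) most like MTHFD2. CBS (r = 0.9), CYP26B1 (r = 0.9) and EIF4EBP1 (r = 0.899) were most like PHGDH, and CMIP (r = 0.915), FBLN1 (r = 0.908) and SSRP1 (r = 0.893) most like MTHFD1. ASNS (r = 0.864), MARS1 (r = 0.857) and TBC1D30 (r = 0.854) were most like MTHFD1L, and SSR1 (r = 0.906), TACC1 (r = 0.885) and HMGA2 (r = 0.882) most like ALDH1L2. SCLY (r = 0.86), LUC7L2 (r = 0.844) and SIRPA (r = 0.836) were most like SHMT1. Among the members themselves, PSAT1 and ALDH1L2 had r = 0.941 over the 12 Huh7 libraries and 0.0814 over the 12 A549 libraries, and PHGDH and SHMT2 0.95 and 0.461. The libraries of a group share their treatment, so these values mostly compare groups.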
